A study of Arabidopsis thaliana with 24 samples.

Results

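Not every RNA that travels with polysomes, the strings of several ribosomes on one message, is annotated as a messenger RNA. The transcripts described here are the nuclear genes of Arabidopsis thaliana whose annotated class, or Biotype, is anything other than protein_coding and whose counts, summed over all 24 libraries, reached at least 500. Of the 32833 rows of the count table, 5128 were nuclear and noncoding, 2413 of those had no count in any library, and 448 met the threshold. The 448 comprised 305 lncRNA loci, 89 ncRNA loci, 18 miRNA precursor loci, 17 snoRNA loci, 17 loci of the class nontranslating_CDS, 1 snRNA and 1 rRNA, while 0 of 625 tRNA loci reached it. Members were chosen by their summed counts, so their abundance is not a result. AT2G09665 and AT2G08440 stood just inside the threshold with 500 counts each, and AT3G01865 and AT1G56165 just outside it with 496 and 494.

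Whole seedlings aged 9 days were used, of the exa1-1 mutant and of the wild type (WT, Col-0), after 60 min of treatment. In the salt experiment the groups were exa1-1 and WT on half-strength MS medium with 200 mM NaCl and the same genotypes on MS medium without it. In the heat experiment they were exa1-1 and WT at 39 °C and at 23 °C. Each of the 8 groups had 3 libraries, named in the series design as independent biological replicates, made from polysome-bound RNA with a strand-specific method, and totals ran from 17861136 to 20629439 counts. EXA1 (AT5G42950) encodes a GYF-domain protein and is the gene disrupted in exa1-1. Its level was 5.36 to 10.5 CPM (counts scaled to library size after TMM normalisation within each experiment) in the exa1-1 libraries, against 64.9 to 96.0 in WT, so every library carried the level its label implies. Of 7 markers checked, the leaf genes RBCS1A and CAB1 had at least 3475.9 CPM in every library and the flower regulator AG at most 0.836. The root hair markers moved with the stresses: PRP3 averaged 1.42 CPM in exa1-1 with NaCl and 32.9 on MS, 0.884 in WT with NaCl and 22.8 on MS, 6.53 in exa1-1 at 39 °C and 19.2 at 23 °C, and 1.31 in WT at 39 °C and 13.6 at 23 °C. EXPA7 was also lower under both stresses, with 6.38 CPM in exa1-1 with NaCl and 17.0 on MS. RHD6 was higher with NaCl, at 3.42 CPM in exa1-1 against 1.84 on MS, and lower at 39 °C, at 0.517 CPM in exa1-1 against 1.50 at 23 °C. The seed storage gene CRA1 averaged 11.2 CPM in exa1-1 and 1.56 in WT at 39 °C, and 9.00 in exa1-1 and 2.78 in WT at 23 °C. The part of these markers' cell types in the results below was not tested. No total RNA was analysed here, so a change in a transcript's amount and a change in its loading cannot be told apart, nor can fewer cells of a type and less RNA per cell.

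Noncoding RNAs reach polysomes in several ways. Some are read by ribosomes over short open reading frames, as the precursors of trans-acting siRNAs (TAS transcripts) and some miRNA primary transcripts are known to be. A TAS transcript is cut by a miRNA, copied into double-stranded RNA by RDR6 with SGS3, and diced by DCL4 into small RNAs that silence other messages. Small nucleolar RNAs (snoRNAs) guide the modification of ribosomal RNA, and U4 is a part of the spliceosome. Antisense lncRNAs are transcribed from the strand opposite to a coding gene and can overlap its exons in full.

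The sequences that cut TAS transcripts, and the sites they pair with, introduce the TAS members. In the mature miRNAs, credited to RefSeq on TAIR10.1, capitals mark the seed, bases 2 to 8.
miR173-5p: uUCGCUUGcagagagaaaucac
miR390a-5p: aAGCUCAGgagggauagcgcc
In the sites of the TAS transcripts below, read 5′ to 3′ on the transcript, capitals mark bases that pair with the miRNA without gaps.
TAS1A: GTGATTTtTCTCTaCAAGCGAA
TAS1B: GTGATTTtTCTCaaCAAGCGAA
TAS1C: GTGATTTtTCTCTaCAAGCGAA
TAS2: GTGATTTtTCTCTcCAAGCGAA
TAS3 upstream site: GGtGtTATCCtatCTGAGCTT
TAS3 downstream site: ttgtCTATCCCTCCTGAGCTa
The miR173 site of TAS1A lies at chr2:11722081-11722102 and that of TAS2 at chr2:16539991-16540012, both on the minus strand. TAS1A, TAS1C and TAS2 pair at 20 of 22 bases and TAS1B at 19 of 22. The TAS3 sites, at chr3:5862099-5862119 and chr3:5862343-5862363 on the plus strand, pair at 16 of 21 bases each.

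Mature miRNAs of precursor loci described below, including the pair of copies that share a sequence, are shown with their seeds in the same way.
miR398b-3p and miR398c-3p: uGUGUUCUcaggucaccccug
miR408-3p: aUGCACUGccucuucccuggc
miR824-5p: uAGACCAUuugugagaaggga
miR822-5p: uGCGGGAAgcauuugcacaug
miR850: uAAGAUCCggacuacaacaaag
miR163: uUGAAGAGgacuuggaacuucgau
miR162a-3p: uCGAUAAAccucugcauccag
miR5630a and miR5630b: gCUAAGAGcgguucugaugga
All 18 of 18 miRNA members had an entry, with 29 mature sequences of which 26 were distinct. MIR398b and MIR398c share both mature arms and their seeds, and MIR5630a and MIR5630b share their mature sequence. The rest of their precursors was not compared, and whether reads of one copy were assigned to the other was not tested.

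Together the 448 members took less of the library in heat. Their share of all counts was 0.399 ± 0.0387% in exa1-1 at 39 °C, against 0.553 ± 0.00811% in exa1-1 at 23 °C, and 0.456 ± 0.0278% in WT at 39 °C, against 0.576 ± 0.0186% in WT at 23 °C (SD, n = 3 each). In the salt experiment it was 0.470 ± 0.00510% in exa1-1 with NaCl and 0.500 ± 0.0213% in exa1-1 on MS, against 0.469 ± 0.00518% in WT with NaCl and 0.455 ± 0.0103% in WT on MS. The ncRNA class carried most of the net heat difference. Its share was 0.116 ± 0.00163% in exa1-1 at 39 °C against 0.235 ± 0.00457% at 23 °C, and 0.121 ± 0.000416% in WT at 39 °C against 0.233 ± 0.00567% at 23 °C. The lncRNA share was 0.228% in exa1-1 at 39 °C against 0.244% at 23 °C, and 0.278% in WT against 0.263%. The miRNA share was higher in heat, at 0.0203% against 0.0132% in exa1-1 and 0.0264% against 0.0187% in WT. One member, AT3G07365, added 46068 counts in exa1-1 at 39 °C and 3 at 23 °C. The nontranslating_CDS loci took 0.0226 ± 0.000652% in exa1-1 at 39 °C against 0.0464 ± 0.000686% at 23 °C. A share is scaled by library totals. On that scale the median log2 fold change of all genes in heat was -1.05 in exa1-1 and -1.002 in WT. A lower share in heat, as in the ncRNA and nontranslating_CDS classes, is therefore not particular to them. The 3 libraries of each group stood apart without overlap in 36 of 64 such contrasts of share by class, but an exact two-sided permutation test of 3 against 3 cannot go below p = 0.1, and the smallest value adjusted over the 64 was 0.178.

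Gene by gene, members were called at an adjusted p under 0.05 by edgeR's quasi-likelihood test, fitted over all genes of each experiment. Salt called 131 members higher and 130 lower of 445 tested in exa1-1, where 73.1% of all genes tested were called, 35.9% higher and 37.2% lower. In WT it called 153 higher and 111 lower, where 71.8% of all genes were called, 36.5% higher and 35.4% lower. Heat called 136 members higher and 203 lower of 444 in exa1-1, where 79.4% of all genes were called, 38.0% higher and 41.4% lower. In WT heat called 135 higher and 216 lower, where 80.5% of all genes were called, 38.2% higher and 42.3% lower. The members called made up 58.7% in exa1-1 and 59.3% in WT for salt, below the background, and 76.4% in exa1-1 and 79.1% in WT for heat, near it. Of the 208 members with at least 2000 counts, salt called 146 in exa1-1 and 145 in WT, and heat 176 and 177. Over all members tested, the median log2 fold change for heat was -0.35 in exa1-1 and -0.45 in WT, against -0.10 for all genes in each genotype. When libraries were scaled by their totals alone, the median of all genes in heat moved to -1.05 in exa1-1 and -1.002 in WT, and the calls of members to 67 higher and 293 lower in exa1-1 and 69 higher and 298 lower in WT. For salt that scaling moved the median of all genes to -0.20 in exa1-1 and -0.15 in WT, and the calls to 106 higher and 166 lower in exa1-1 and 114 higher and 143 lower in WT. Between genotypes the members called in the same direction for salt were 112 higher and 92 lower, with 4 called in opposite directions. For heat they were 112 higher and 190 lower, with 3 opposite. The share of all genes called alike in both genotypes was not computed, so these counts are no result about the members.

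**Figure D1:**
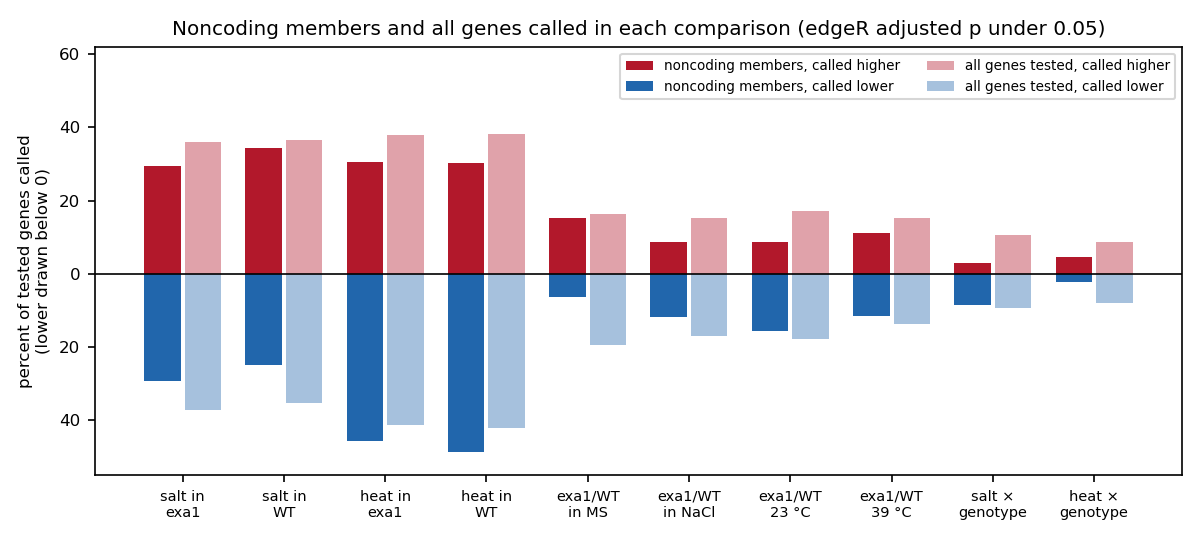
Percent of tested genes called higher (above 0) or lower (below 0) in each of 10 comparisons, for the noncoding members (dark bars) and for all genes tested (pale bars), by edgeR at an adjusted p under 0.05. In heat the dark bars reach further down than the pale ones, and in the comparisons of genotypes they are shorter.

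TAS precursors fell with both stresses in both genotypes. TAS1 and TAS2 give siRNAs against pentatricopeptide-repeat genes, and TAS3 gives the tasiARFs, which silence the auxin response factors ARF2, ARF3 and ARF4. All 5 TAS members were called lower in each of the 4 stress comparisons, and they were among 47 members of which this held. Per comparison 35.4% to 42.3% of all genes were called lower, and the share lower in all 4 was not computed. TAS3 (AT3G17185, chr3:5861491-5862437) had 0.235, 0.0771 and 0.389 CPM in exa1-1 at 39 °C, against 15.4, 14.5 and 12.6 CPM in exa1-1 at 23 °C. In WT it had 0.293, 0.0742 and 0.0756 CPM at 39 °C, against 12.7, 13.2 and 12.2 CPM at 23 °C. No heated library came near an unheated one, and the log2 fold change was -5.89 ± 0.26 in exa1-1 and -6.36 ± 0.29 in WT (SE; edgeR adjusted p = 3.8e-27 and 5.6e-27).

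TAS1A (AT2G27400) had 0.861, 0.308 and 0.0779 CPM in exa1-1 at 39 °C, against 6.29, 7.10 and 6.03 CPM in exa1-1 at 23 °C. WT libraries had 0.733, 0.297 and 0.605 CPM at 39 °C, against 8.48, 9.09 and 10.7 CPM at 23 °C. Groups again did not overlap, and it fell by 3.94 ± 0.30 on the log2 scale in exa1-1 and by 4.10 ± 0.27 in WT. TAS2 (AT2G39681), the TAS member with the most counts, fell less in heat, by 2.56 ± 0.17 in exa1-1 and by 2.68 ± 0.15 in WT. TAS1B (AT1G50055) fell by 3.15 ± 0.37 in exa1-1 and by 3.54 ± 0.35 in WT, and TAS1C (AT2G39675) by 4.85 ± 0.39 in exa1-1 and by 3.90 ± 0.33 in WT.

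Log2 changes with salt lay closer to 0 in the same precursors, a difference between experiments that was not tested. TAS3 had 2.45, 2.61 and 2.06 CPM in exa1-1 with NaCl, against 8.42, 8.25 and 9.38 CPM in exa1-1 on MS. The values in WT were 3.42, 3.19 and 3.32 CPM with NaCl, against 8.16, 10.15 and 9.60 CPM on MS. The groups did not overlap, and the log2 fold change was -1.87 ± 0.15 in exa1-1 and -1.48 ± 0.14 in WT. TAS1A fell by 1.77 ± 0.10 in exa1-1 and by 1.38 ± 0.10 in WT. The difference between genotypes in the salt response was called for TAS2 alone of the 5, at -0.34 ± 0.12 (edgeR adjusted p = 0.032), and none of the 5 had a called heat interaction.

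**Figure D2:**
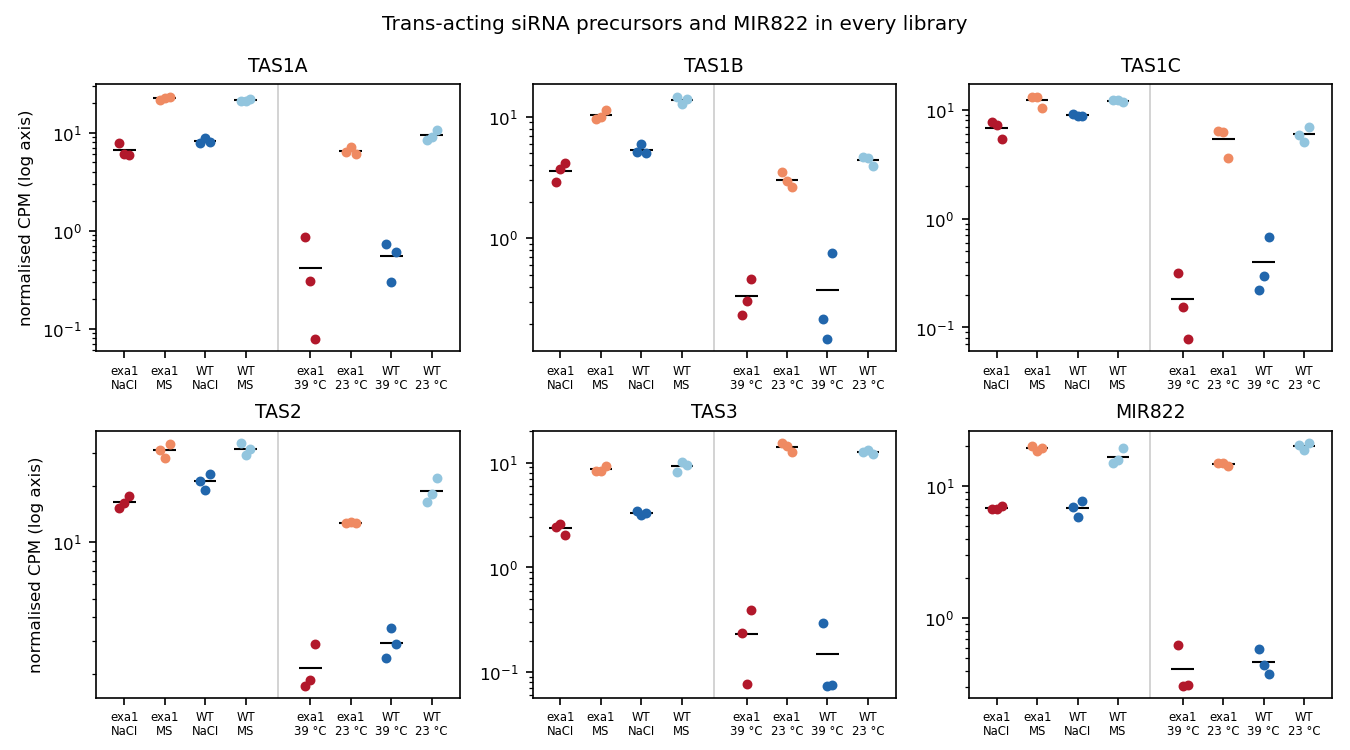
TMM-normalised CPM of 5 TAS precursors and of MIR822 in each of 24 libraries on log axes (points, libraries; lines, group means), scaled within each experiment, with the salt experiment left of the grey line and the heat experiment right of it. At 39 °C all points lie below all points at 23 °C in both genotypes, as for TAS3, where no heated library exceeds 0.389 CPM.

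The genes around the TAS pathway were read from the same libraries. Of 9 genes that make small RNAs, heat called 2 higher and 5 lower in exa1-1 and 2 higher and 7 lower in WT, and salt called 0 higher and 6 lower in exa1-1 and 0 higher and 1 lower in WT. Of all genes tested, heat called 38.0% higher and 41.4% lower in exa1-1, and 38.2% and 42.3% in WT. Salt called 35.9% of all genes higher and 37.2% lower in exa1-1, and 36.5% and 35.4% in WT. RDR6, the polymerase that copies cut TAS transcripts, averaged 8.65 ± 0.618 CPM in exa1-1 at 39 °C and 31.9 ± 3.20 at 23 °C, and 5.50 ± 0.849 in WT at 39 °C and 23.8 ± 1.87 at 23 °C. RDR6 was the one gene of the 9 called lower in all 4 stress comparisons, by 0.91 ± 0.06 on the log2 scale for salt in exa1-1 and by 0.73 ± 0.07 in WT. AGO7, which carries miR390 to TAS3, averaged 0.104 ± 0.0451 CPM in exa1-1 at 39 °C and 2.24 ± 0.303 at 23 °C, and 0.1004 ± 0.116 in WT at 39 °C and 1.32 ± 0.121 at 23 °C. Of 8 listed targets of trans-acting siRNAs, 5 passed the filter on low counts in the heat fit, with 2 called higher and 3 lower in each genotype. HTT1, a heat-induced target of TAS1 siRNAs, averaged 2.88 ± 0.625 CPM in exa1-1 at 39 °C and 0.0653 ± 0.113 at 23 °C, and 3.15 ± 0.692 in WT at 39 °C and 0.106 ± 0.122 at 23 °C. ARF3, a target of TAS3 siRNAs, fell by 3.64 ± 0.15 on the log2 scale in exa1-1 and by 2.99 ± 0.15 in WT. In salt 7 targets were tested, with 4 called higher and 2 lower in exa1-1 and 4 higher and 1 lower in WT.

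The miRNA precursor loci split into those that rose and those that fell in heat. Of the 18, heat called 9 higher and 8 lower in exa1-1 and 8 higher and 8 lower in WT, which library totals alone turned to 5 higher and 9 lower in exa1-1 and 5 higher and 8 lower in WT. Those called by the main scaling were 94.4% in exa1-1 and 88.9% in WT, against 79.4% and 80.5% of all genes. Heat split all genes too, with 38.0% higher and 41.4% lower in exa1-1 and 38.2% and 42.3% in WT. MIR398b (AT5G14545, chr5:4691022-4691137, plus strand), the source of a miRNA against copper/zinc superoxide dismutases, had 155, 148 and 157 CPM in exa1-1 at 39 °C, against 9.58, 9.02 and 9.40 CPM in exa1-1 at 23 °C. In WT libraries it had 220, 228 and 218 CPM at 39 °C, against 16.0, 12.6 and 13.1 CPM at 23 °C. All heated libraries were far above all unheated ones, and the log2 fold change was 4.03 ± 0.06 in exa1-1 and 4.00 ± 0.06 in WT (edgeR adjusted p = 2.6e-48 and 2.3e-49). MIR398b was also lower in exa1-1 than in WT, by 0.57 ± 0.08 on the log2 scale at 23 °C and by 0.54 ± 0.05 at 39 °C. Its copy MIR398c rose by 2.94 ± 0.33 in exa1-1 and by 3.29 ± 0.32 in WT.

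The annotated precursor of MIR398b lies wholly over exons of AT5G14550 on the other strand and held 196% of that gene's counts over all libraries. AT5G14550 changed by 0.33 in exa1-1 and by 0.73 in WT on the log2 scale in heat. The part of its reads in the counts of MIR398b was not tested. The messages that miR398 is known to silence were CSD1 and CSD2, the superoxide dismutases, and CCS1, their copper chaperone. The best ungapped matches to miR398b-3p in their transcripts are shown with paired bases in capitals.
CSD1: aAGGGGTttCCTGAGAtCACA
CSD2: tgcGGGTGACCTGgGAAacat
CCS1: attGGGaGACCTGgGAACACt
They pair at 17, 13 and 15 of 21 bases. CSD1 fell in heat by 3.13 ± 0.12 on the log2 scale in exa1-1 and by 2.76 ± 0.12 in WT. CSD2 averaged 2.75 ± 0.206 CPM in exa1-1 at 39 °C and 30.7 ± 0.819 at 23 °C, and 4.16 ± 1.10 in WT at 39 °C and 15.6 ± 0.492 at 23 °C. The fall of CSD2 was 1.58 ± 0.21 larger on the log2 scale in exa1-1 (interaction, edgeR adjusted p = 9.0e-08), while the same interaction for MIR398b was 0.04 ± 0.09. CCS1 fell by 0.82 ± 0.09 in exa1-1 and by 0.66 ± 0.09 in WT. Of the list of 4 miRNA targets that holds these genes and PHO2, heat called 0 higher and 4 lower in each genotype. Heat called 41.4% of all genes lower in exa1-1 and 42.3% in WT.

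MIR408 (AT2G47015), whose miRNA acts on copper proteins such as plantacyanin and laccases, had 67.8, 60.1 and 60.0 CPM in exa1-1 at 39 °C, against 6.26, 6.98 and 8.22 CPM in exa1-1 at 23 °C. In WT it had 72.6, 71.6 and 66.6 CPM at 39 °C, against 9.00, 7.60 and 7.63 CPM at 23 °C. The separation was complete, with a log2 fold change of 3.13 ± 0.09 in exa1-1 and 3.12 ± 0.08 in WT. Salt raised it too, by 1.27 ± 0.14 in exa1-1 and by 1.04 ± 0.13 in WT. MIR408 also lies over the exons of a coding gene, AT2G47020, which changed by -0.21 in exa1-1 and by -0.17 in WT in heat.

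MIR824 (AT4G24415), whose miRNA targets the MADS-box gene AGL16, was the miRNA locus raised most by salt. It had 62.6, 69.0 and 68.0 CPM in exa1-1 with NaCl, against 11.8, 14.7 and 13.8 CPM in exa1-1 on MS. WT libraries had 46.5, 39.9 and 44.8 CPM with NaCl, against 9.01, 9.22 and 7.14 CPM on MS. Groups did not overlap, and the rise was 2.30 ± 0.08 in exa1-1 and 2.37 ± 0.09 in WT on the log2 scale. In heat it rose by 4.19 ± 0.16 in exa1-1 and by 3.29 ± 0.17 in WT, a difference of 0.90 ± 0.25 between genotypes (edgeR adjusted p = 0.0093). MIR824 was higher in exa1-1 than in WT on MS, by 0.67 ± 0.10, with NaCl, by 0.61 ± 0.07, and at 39 °C, by 0.87 ± 0.12, while at 23 °C the difference was -0.03 ± 0.22.

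MIR822 (AT5G03552), which gives a miRNA against DC1-domain genes, fell furthest. It had 0.626, 0.308 and 0.311 CPM in exa1-1 at 39 °C, against 14.9, 15.1 and 14.1 CPM in exa1-1 at 23 °C. The values in WT were 0.586, 0.445 and 0.378 CPM at 39 °C, against 20.5, 18.6 and 21.1 CPM at 23 °C. It fell by 5.12 ± 0.22 in exa1-1 and by 5.40 ± 0.20 in WT on the log2 scale, and by 1.50 ± 0.11 in exa1-1 and by 1.30 ± 0.11 in WT with salt. Next in heat came MIR850, which fell by 3.68 ± 0.43 in exa1-1 and by 3.46 ± 0.42 in WT, and MIR863, which fell by 2.46 ± 0.64 in exa1-1 and by 3.67 ± 0.72 in WT, the WT value resting on 3 counts at 39 °C against 77 at 23 °C. MIR5642a, close to the 18S locus, fell by 2.03 ± 0.18 in exa1-1 and by 2.81 ± 0.17 in WT. MIR162a, the source of the miRNA that targets DCL1, and MIR163, the source of one against methyltransferase genes, were the other miRNA loci called lower in all 4 stress comparisons. MIR163 had 0.469, 0.540 and 0.467 CPM in exa1-1 at 39 °C against 2.32, 3.45 and 2.58 CPM at 23 °C, and 1.25, 1.48 and 1.21 CPM in WT at 39 °C against 2.07, 2.30 and 2.81 CPM at 23 °C. The heated libraries were lower in both genotypes, and its fall was larger in exa1-1 by 1.62 ± 0.48 (edgeR adjusted p = 0.012). MIR414 went opposite ways under the stresses, with a log2 fold change of -1.21 ± 0.15 in exa1-1 for heat and 1.67 ± 0.08 for salt.

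Salt split MIR398b by genotype. It had 6.02, 6.20 and 4.84 CPM in exa1-1 with NaCl, against 8.37, 7.21 and 7.61 CPM in exa1-1 on MS. In WT libraries it had 8.58, 7.35 and 9.25 CPM with NaCl, against 6.79, 6.55 and 6.12 CPM on MS. The exa1-1 libraries were lower with NaCl and the WT libraries higher, and the interaction was -0.81 ± 0.19 (edgeR adjusted p = 0.0013). The WT rise of 0.37 ± 0.13 was not called when libraries were scaled by their totals alone (adjusted p = 0.13). MIR5630a, whose rise in heat was 1.25 ± 0.43 in exa1-1 and 1.77 ± 0.40 in WT, was not called in heat in either genotype under that scaling, and it lies over the exons of AT1G33120 with 5.54% of its counts.

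**Figure D3:**
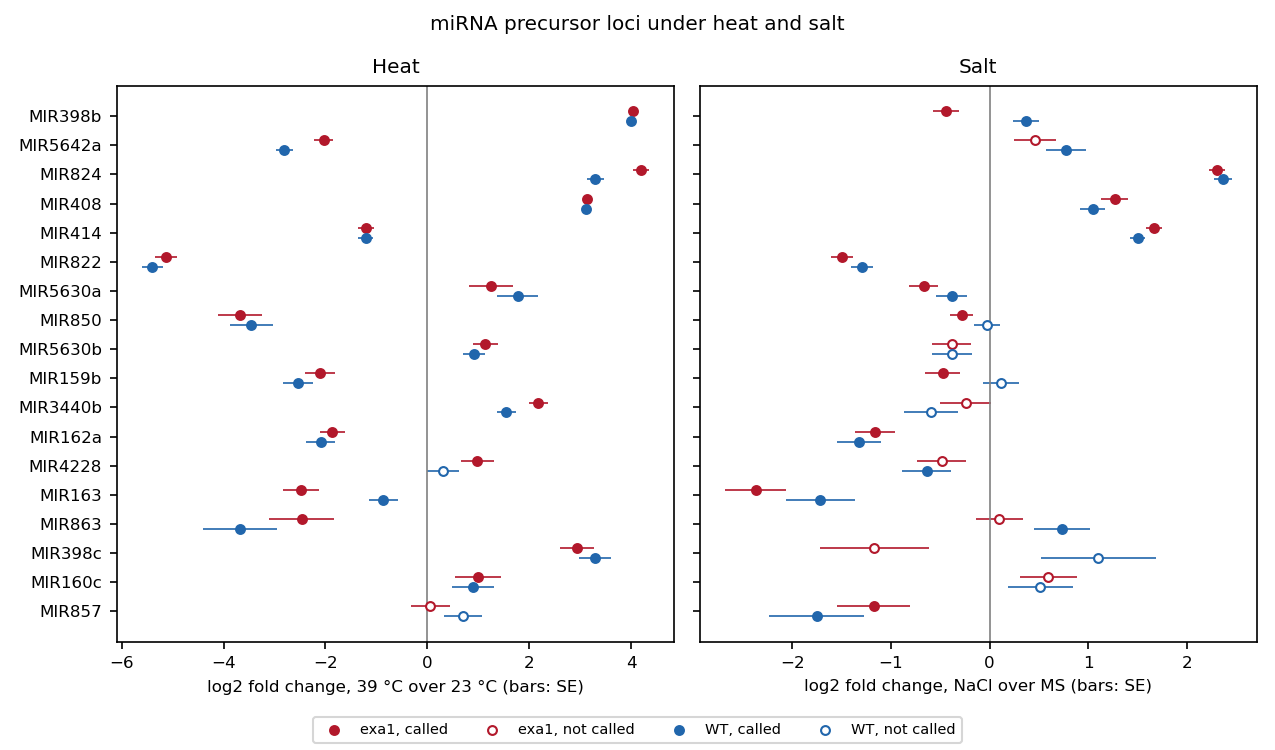
Log2 fold changes with SE of the 18 miRNA precursor loci for heat (left) and salt (right), in exa1-1 (red) and WT (blue), filled where edgeR called the change, ordered by total counts from MIR398b at the top. MIR398b, MIR408 and MIR824 lie near or above 3 in heat, and MIR822 lies below -5.

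Most of the 17 snoRNA loci fell with salt. Salt called 0 higher and 12 lower in each genotype, with a median log2 fold change of -0.80 in exa1-1 and -0.60 in WT against medians of -0.02 and 0.00 over all genes. The 12 were 70.6% of those tested, near the 73.1% of all genes called in exa1-1 and 71.8% in WT. Of all genes 37.2% were called lower in exa1-1 and 35.4% in WT. AT3G08165 had 5.03, 5.06 and 4.95 CPM in exa1-1 with NaCl, against 9.70, 9.40 and 12.8 CPM in exa1-1 on MS. In WT it had 4.62, 4.39 and 6.35 CPM with NaCl, against 12.4, 10.2 and 10.8 CPM on MS. The groups were apart, and the log2 fold change was -1.09 ± 0.14 in exa1-1 and -1.13 ± 0.14 in WT. AT3G47348, the snoRNA with the most counts, fell by 0.59 ± 0.09 in exa1-1 and by 0.93 ± 0.09 in WT. In heat 9 were called higher and 3 lower in exa1-1 and 8 higher and 3 lower in WT, but scaling by library totals alone turned these to 2 higher and 7 lower in exa1-1 and 5 higher and 7 lower in WT, so the direction of the class in heat depends on the scaling.

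A pair of neighbouring snoRNA loci stood out in heat under either scaling. AT4G39361 (chr4:18304891-18305010) had 15.9, 12.6 and 15.7 CPM in exa1-1 at 39 °C, against 0.500, 0.431 and 0.274 CPM in exa1-1 at 23 °C. WT libraries had 12.5, 10.9 and 9.38 CPM at 39 °C, against 0.239, 0.404 and 0.119 CPM at 23 °C. It rose by 5.16 ± 0.23 in exa1-1 and by 5.40 ± 0.26 in WT. Its counts in the heat experiment lay almost wholly at 39 °C and counted towards the threshold, so its rise is a description only. AT4G39366 (chr4:18305585-18305704) rose by 3.18 ± 0.16 in exa1-1 and by 2.44 ± 0.17 in WT. Both lie on the plus strand upstream of UBP27, a gene for a ubiquitin protease.

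U4.10 (AT1G06877), the one snRNA member, reached the threshold through its NaCl libraries. It had 7.13, 9.32 and 6.06 CPM in exa1-1 with NaCl, against 0.102, 0 and 0.0958 CPM in exa1-1 on MS. The values in WT were 6.72, 5.87 and 6.41 CPM with NaCl, against 0.142, 0.382 and 0.376 CPM on MS. All NaCl libraries were above all MS libraries, with a fitted log2 fold change of 6.67 ± 0.36 in exa1-1 and 4.40 ± 0.29 in WT. It was not tested in the heat experiment, where every library had at most 0.121 CPM. Loci whose counts come almost wholly from 1 condition had to differ between conditions in order to be members, and the same holds for AT1G55525 and AT5G06775.

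AT1G55525 (chr1:20728329-20728745) had 6.14, 5.40 and 5.56 CPM in exa1-1 with NaCl, against 0.0510, 0 and 0.0958 CPM in exa1-1 on MS. From 300 counts against 3, it was 113-fold higher with NaCl in exa1-1 (95% exact interval 38.3 to 552, for counting error only). AT5G06775 had 5.78 to 6.84 CPM in exa1-1 with NaCl against 0.104 to 0.306 CPM on MS, and 4.86 to 6.27 CPM in WT with NaCl against 0.215 to 0.330 CPM on MS. AT1G08757 (chr1:24339371-24340154) went the other way, with 0 CPM in all 3 exa1-1 libraries with NaCl, against 6.53, 7.10 and 6.13 CPM in exa1-1 on MS. In WT libraries it had 0.0600, 0 and 0 CPM with NaCl, against 7.03, 7.37 and 5.31 CPM on MS. It was at least 115-fold lower with NaCl in exa1-1, with the exa1-1 libraries with NaCl together set to a floor of 3 counts.

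Salt also moved members with many counts. AT1G69252 had 151, 154 and 155 CPM in exa1-1 with NaCl, against 50.7, 52.4 and 54.3 CPM in exa1-1 on MS. In WT it had 169, 161 and 172 CPM with NaCl, against 47.4, 46.3 and 51.0 CPM on MS. It rose with salt by 1.55 ± 0.05 in exa1-1 and by 1.79 ± 0.05 in WT, and fell in heat by 0.60 ± 0.05 in exa1-1 and by 0.90 ± 0.05 in WT. AT5G48412 likewise rose with salt, by 0.73 ± 0.05 in exa1-1 and by 1.00 ± 0.05 in WT, and fell in heat, by 1.29 ± 0.07 in exa1-1 and by 1.23 ± 0.07 in WT. AT1G10682 fell with salt by 1.06 ± 0.06 in exa1-1 and by 1.33 ± 0.06 in WT. AT4G06410 (chr4:9386180-9387271, minus strand) had 78.6, 74.9 and 80.5 CPM in exa1-1 with NaCl, against 9.29, 7.73 and 9.38 CPM in exa1-1 on MS. WT libraries had 101, 105 and 101 CPM with NaCl, against 6.08, 5.84 and 6.38 CPM on MS. Its rise was smaller in exa1-1, at 3.14 ± 0.07 against 4.06 ± 0.07 in WT, a difference of -0.92 ± 0.11 (edgeR adjusted p = 5.6e-08), and AT4G16670, the coding gene it faces, rose by 0.97 in exa1-1 and by 1.22 in WT.

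GUT15 (AT2G18440, chr2:7994941-7997239), a noncoding RNA of the group named for unstable transcripts, had the most counts of all members. It had 467, 499 and 498 CPM in exa1-1 at 39 °C, against 211, 204 and 211 CPM in exa1-1 at 23 °C. The values in WT were 518, 476 and 503 CPM at 39 °C, against 296, 304 and 285 CPM at 23 °C. The heated libraries of the genotypes overlapped while the unheated ones did not, and GUT15 rose by 1.23 ± 0.04 in exa1-1 and by 0.76 ± 0.04 in WT, an interaction of 0.47 ± 0.06 (edgeR adjusted p = 5.7e-09). Scaled by library totals alone, the WT heat value was -0.15, so its direction there depends on the scaling. AT4G36648 rose by 1.89 ± 0.04 in exa1-1 and by 1.47 ± 0.04 in WT, and was lower in exa1-1 than in WT by 0.58 ± 0.04 at 23 °C.

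The ncRNA class as a whole fell in heat. Of 88 tested, 14 were called higher and 59 lower in exa1-1 and 13 higher and 63 lower in WT, with medians of -0.97 and -1.06 against -0.10 over all genes. With library totals alone these medians were -1.93 in exa1-1 and -1.97 in WT, still below the medians of all genes at that scaling. AT1G23052 (chr1:8168443-8169267) had 1.17, 0.308 and 0.156 CPM in exa1-1 at 39 °C, against 20.4, 18.2 and 21.5 CPM in exa1-1 at 23 °C. In WT libraries it had 0.513, 1.04 and 0.454 CPM at 39 °C, against 23.9, 21.2 and 25.3 CPM at 23 °C. It fell by 5.19 ± 0.23 in exa1-1 and by 5.12 ± 0.21 in WT, while AT1G23050, the gene it covers from the other strand, changed by -0.89 in exa1-1 and by -1.28 in WT. Of 303 lncRNA loci tested, 99 were called higher and 128 lower in exa1-1 and 99 higher and 134 lower in WT, which library totals alone turned to 50 higher and 186 lower in exa1-1 and 50 higher and 191 lower in WT. Those called by the main scaling were 74.9% of the lncRNA loci in exa1-1 and 76.9% in WT. The ncRNA loci called were 83.0% and 86.4%, against 79.4% and 80.5% of all genes. Of all genes 38.0% were called higher and 41.4% lower in exa1-1, and 38.2% and 42.3% in WT.

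Position told members apart further. The strand opposite to a coding gene was overlapped by 317 of the 448, the same strand by 35, and neither by 129, with some loci in both groups. Opposite-strand coding exons covered at least 50% of the exonic bases of 219 members. By their total counts, 98 of these held under 10% of the counts of the gene they face, 63 from 10% to under 100%, and 58 at least 100%. In heat the last group had 12 called higher and 41 lower in exa1-1 and 9 higher and 41 lower in WT, with medians of -1.47 and -1.58. The group under 10% had 49 called higher and 16 lower in exa1-1 and 45 higher and 20 lower in WT, which library totals alone turned to 26 higher and 39 lower in exa1-1 and 24 higher and 42 lower in WT. Those called by the main scaling were 66.3% of the group under 10% in each genotype. In the group at 100% or more they were 91.4% in exa1-1 and 86.2% in WT. Of all genes heat called 79.4% in exa1-1 and 80.5% in WT.

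Members under 10% followed their partners. Of the 98, heat called 58 in the same direction as the partner and 4 in the opposite one in exa1-1, and 54 and 7 in WT. Only the partner was called in 27 pairs in each genotype, and agreement between unrelated genes was not tested. Across pairs, Pearson's r of the log2 fold changes in heat was 0.91 in exa1-1 and 0.93 in WT over 98 pairs for members under 10%, against 0.38 in exa1-1 and 0.34 in WT over 46 pairs for members at 100% or more. Spearman's rank correlation of the same pairs was lower, at 0.77 in exa1-1 and 0.80 in WT, against 0.27 and 0.29. Pearson's r in salt is given next. In salt it was 0.76 in exa1-1 and 0.78 in WT over 97 pairs, against 0.36 in exa1-1 and 0.23 in WT over 47 pairs. Member and partner were counted in the same libraries over the same stretch of genome, and pairs are not independent replicates. Among members under 10%, the median percent of partner counts was 2.90 to 4.95 over the 24 libraries. The part that reads of the partner's strand had in the members' counts was not tested.

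**Figure D4:**
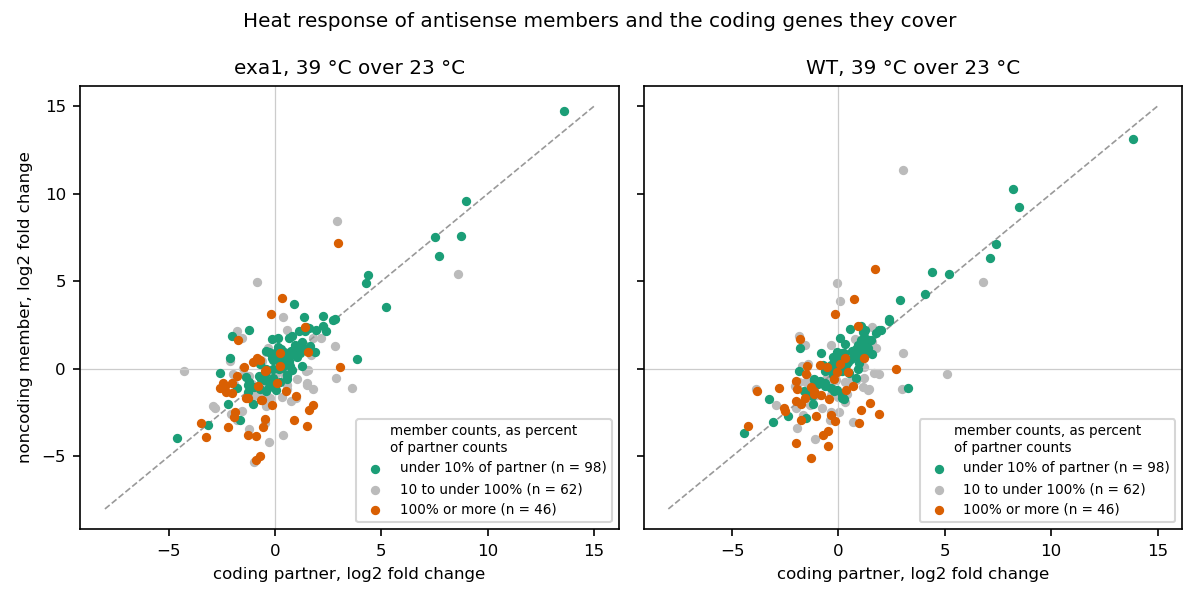
Log2 fold change in heat of antisense members (vertical) against that of the coding gene each covers (horizontal), in exa1-1 (left) and WT (right), coloured by the member's counts as a percent of the partner's, with a dashed line of equality. Members under 10% (green) lie along the line up to AT3G07365 at the upper right, and members at 100% or more (orange) scatter mostly below 0.

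The largest change of any member was of this kind. AT3G07365 (chr3:16984335-16984787, plus strand) lies wholly over HSP17.4, a small heat shock protein gene, and held 8.92% of its counts. It had 1438, 999 and 1147 CPM in exa1-1 at 39 °C, against 0.0357, 0.0392 and 0.0392 CPM in exa1-1 at 23 °C. In WT it had 1264, 1495 and 1295 CPM at 39 °C, against 0.0398, 0.202 and 0.198 CPM at 23 °C. From 46068 counts against 3 in exa1-1, the ratio was 31437 (95% exact interval 10757 to 152448, for counting error only). Its counts in the heat experiment lay almost wholly at 39 °C and took it past the threshold. A rise in heat was thus built into its membership, and the ratio is a description only. HSP17.4 itself averaged 14807 ± 213 CPM in exa1-1 at 39 °C and 1.18 ± 0.208 at 23 °C, and 13800 ± 49.9 in WT at 39 °C and 0.946 ± 0.205 at 23 °C.

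AT3G04685, over MBF1C, a transcriptional coactivator induced by heat, rose by 9.58 ± 0.37 in exa1-1 and by 9.22 ± 0.34 in WT with 5.55% of its partner's counts. AT3G03215, over PDX1.2, a vitamin B6 pathway gene, rose by 7.54 ± 0.33 in exa1-1 and by 7.11 ± 0.31 in WT. As for AT3G07365, the counts of AT3G04685 and AT3G03215 in the heat experiment lay almost wholly at 39 °C. Those counts went towards the threshold, so both rises are descriptions only. AT2G08665, over LHB1B2, a chlorophyll-binding protein gene, had 624, 344 and 456 CPM in exa1-1 at 39 °C, against 92.8, 83.0 and 81.0 CPM in exa1-1 at 23 °C. WT libraries had 679, 913 and 753 CPM at 39 °C, against 210, 177 and 125 CPM at 23 °C. All heated libraries were above all unheated ones, and the rise was 2.47 ± 0.26 in exa1-1 and 2.19 ± 0.25 in WT. AT1G09433, which held 40.6% of the counts of its partner AT1G74300, reached the threshold through its 39 °C libraries. It had 13.9, 18.1 and 18.1 CPM in WT at 39 °C and no count in any WT library at 23 °C, at least 417-fold higher with the empty group set to a floor of 3 counts.

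The 17 nontranslating_CDS loci are protein coding in RefSeq, so their place among noncoding transcripts rests on the Biotype of the count table alone. AT4G16150, annotated as a calmodulin-binding transcription activator, had 108, 108 and 112 CPM in exa1-1 with NaCl, against 65.8, 61.7 and 58.6 CPM in exa1-1 on MS. The values in WT were 116, 114 and 114 CPM with NaCl, against 65.0, 67.8 and 61.6 CPM on MS. It rose with salt by 0.82 ± 0.05 in each genotype, and RR2, a cytokinin response regulator, by 0.81 ± 0.08 in exa1-1 and 0.80 ± 0.08 in WT. AT4G16150 also rose in heat, by 0.43 ± 0.06 in exa1-1 and by 0.36 ± 0.06 in WT, but library totals alone gave -0.53 and -0.54. BGLU5, a beta-glucosidase gene, rose with salt less in exa1-1, by 0.92 ± 0.11, than in WT, by 1.68 ± 0.10, an interaction of -0.76 ± 0.15 (edgeR adjusted p = 0.00016). The only rRNA member, AT3G41768 (18S), had a heat value of 0.51 ± 0.05 in exa1-1 and -0.25 ± 0.05 in WT, with -0.45 in exa1-1 under library totals alone.

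Fewer members differed between genotypes than between conditions. Comparing exa1-1 with WT called 68 higher and 28 lower on MS, where 36.0% of all genes were called, 16.5% higher and 19.5% lower. With NaCl 39 were called higher and 52 lower, against 32.4% of all genes, 15.3% higher and 17.1% lower. At 23 °C 39 were called higher and 70 lower, against 34.8% of all genes, 17.1% higher and 17.8% lower. At 39 °C 49 were called higher and 51 lower, against 28.8% of all genes, 15.2% higher and 13.7% lower. Those counts are 20.4% to 24.5% of the members tested, below each background. Scaling by library totals alone gave 91 higher and 18 lower on MS, and 53 higher and 40 lower with NaCl. Of the 208 members with at least 2000 counts, 69 were called on MS, 58 with NaCl, 72 at 23 °C and 60 at 39 °C. The part of low counts in the gap between members and all genes was not tested. Those called at 23 °C were 36 higher and 36 lower, and those at 39 °C 37 higher and 23 lower. The lean towards lower in exa1-1 at 23 °C was thus not seen among them. Members under 10% of an antisense partner were 1 higher and 20 lower of the calls at 23 °C and 3 higher and 15 lower at 39 °C. Their median percent of partner counts at 23 °C was 3.06, 3.10 and 3.06 in the exa1-1 libraries, against 4.34, 3.77 and 3.08 in the WT libraries, and at 39 °C it was 3.81, 2.90 and 3.12 in exa1-1, against 3.37, 4.64 and 4.04 in WT. The part of this ratio in those calls was not tested.

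Of the 448 members, 4 were called higher and 1 lower in all 4 conditions. Of the 20552 genes tested in all 4, 1.21% were called higher and 2.48% lower in each. AT4G04223 (chr4:2036511-2037816), an ncRNA beside the receptor-like protein gene RLP46, was the one lower. It had 2.75, 2.05 and 2.61 CPM in exa1-1 with NaCl, against 9.30, 8.61 and 7.24 CPM in WT with NaCl. At 39 °C it had 2.66, 2.24 and 2.57 CPM in exa1-1, against 7.11, 8.24 and 8.24 CPM in WT. No exa1-1 library in any condition reached the lowest WT library, and the log2 difference was -1.66 ± 0.15 on MS, -1.76 ± 0.16 with NaCl, -1.97 ± 0.17 at 23 °C and -1.66 ± 0.20 at 39 °C. Neither stress changed it by a called amount in either genotype.

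AT1G67105 (ASCO, chr1:25057479-25058264) was higher in exa1-1. It had 9.08, 8.39 and 9.71 CPM in exa1-1 at 23 °C, against 4.94, 4.32 and 5.18 CPM in WT at 23 °C. On MS it had 7.66, 6.06 and 7.37 CPM in exa1-1, against 3.11, 3.11 and 3.92 CPM in WT. The genotypes did not overlap in any condition, and the log2 difference was 1.06 ± 0.16 on MS, 1.09 ± 0.20 with NaCl, 0.91 ± 0.14 at 23 °C and 0.99 ± 0.17 at 39 °C. AT1G60545, AT2G24592 and AT4G37432 were the other members called higher in all 4 conditions, with log2 differences between 0.18 and 0.89.

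AT4G16892 (chr4:9506322-9508337), an ncRNA beside the immune receptor gene SNC1, was lower in exa1-1 in 3 of 4 conditions. It had 0.561, 0.313 and 1.10 CPM in exa1-1 on MS, against 2.55, 3.16 and 3.00 CPM in WT on MS. The log2 difference was -2.10 ± 0.29 on MS, -1.71 ± 0.26 with NaCl and -2.44 ± 0.43 at 23 °C. At 39 °C all libraries were low, with 0 to 0.235 CPM in exa1-1 and 0 to 0.378 CPM in WT, and the difference was not called (edgeR adjusted p = 0.56).

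**Figure D5:**
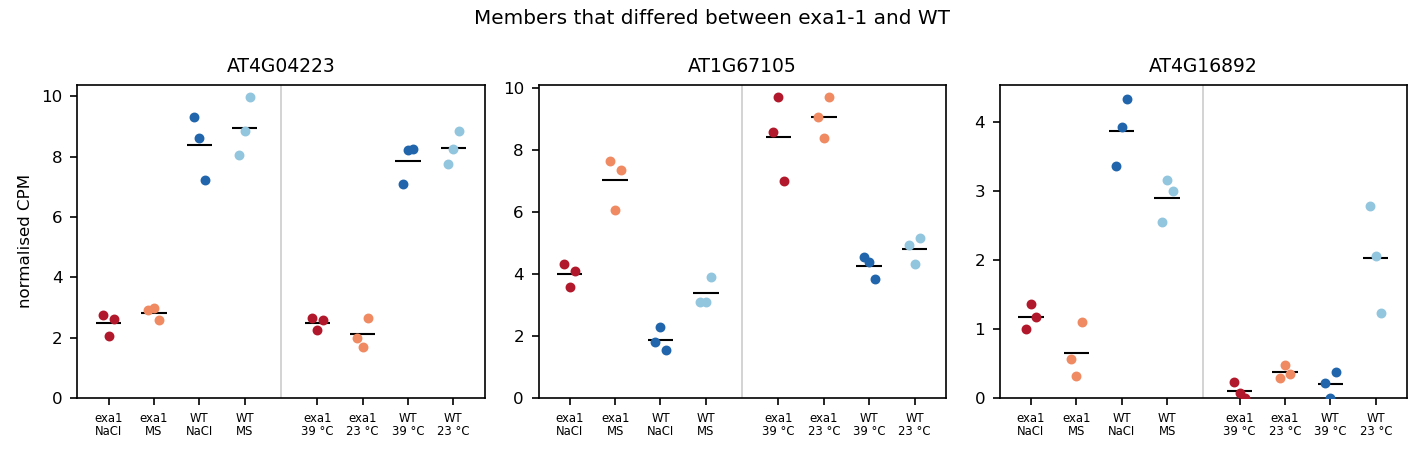
TMM-normalised CPM of AT4G04223, AT1G67105 and AT4G16892 in each of 24 libraries (points, libraries; lines, group means), scaled within each experiment. AT4G04223 stays below 3 CPM in all exa1-1 libraries and above 7 CPM in all WT libraries, AT1G67105 is higher in exa1-1, and AT4G16892 is near 0 in both genotypes at 39 °C.

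The salt response differed between genotypes for 51 members, with 13 interactions above 0 and 38 below, or 11.5% of those tested. Of all genes 20.0% were called in that comparison, 10.6% above 0 and 9.36% below. The heat response differed for 31 members, with 21 above 0 and 10 below, or 6.98%, against 16.9% of all genes, 8.78% above 0 and 8.10% below. Library totals alone gave 20 above and 16 below for heat. Of the 208 members with at least 2000 counts, 41 had a called salt interaction and 22 a called heat interaction. AT3G06355, which begins just past the 18S locus AT3G41768 on the same strand, had the largest heat interaction. It had 0.235, 0.308 and 0.545 CPM in exa1-1 at 39 °C, against 1.32, 1.37 and 1.06 CPM in exa1-1 at 23 °C. In WT libraries it had 0.0733, 0.0742 and 0 CPM at 39 °C, against 4.14, 3.48 and 3.36 CPM at 23 °C. It was lower with heat in both genotypes, and the interaction of 4.26 ± 0.90 (edgeR adjusted p = 0.00041) rests on 14 counts in exa1-1 and 2 in WT at 39 °C.

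The promoters of members, 250 bases before to 50 after each start in RefSeq on TAIR10.1, were searched on both strands for GAANNTTC and TTCNNGAA, parts of heat shock elements, and for ACGTG, the core of abscisic acid response elements. Either heat motif was found in 24.1% of the 112 members called higher in heat in both genotypes and in 20.3% of all members, against 19.5% of promoters of the 32546 nuclear genes. ACGTG was found in 25.9% of the 112 members called higher with salt in both genotypes and in 22.5% of all members, against 25.8% of all promoters.

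Several noncoding RNAs known from other work fell under the threshold, with 154 counts for TAS4, 128 for the COOLAIR locus AT5G01675, 86 for DRIR, 38 for ELENA1, 26 for TAS3B and 24 for TAS3C. IPS1, AT4 and APOLO are protein_coding in the Biotype column and so were not members. The listed lncRNAs GUT15, ASCO (AT1G67105) and FLORE (AT1G69572) were members. FLORE had a log2 fold change in heat of -3.24 in exa1-1 and -2.61 in WT.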

How the data were processed

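Polysome-bound RNA was measured in 24 libraries, 3 in each of 8 groups. The authors deposited raw counts per gene, made with HISAT2 2.0.4 and HTSeq 0.6.1p1 on TAIR10 per the submitters' processing notes. FPKM values, deposited by the authors beside them, were used here only to check transcript lengths, which equalled the RefSeq TAIR10.1 exonic length within 1 base for 448 of 448 members. Settings for strand, overlaps and multiple hits are not given in the sources used here.

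Counts were tested with edgeR 4.0.16 (R 4.3.3; TMM, robust quasi-likelihood, filterByExpr with a minimum count of 10 and total of 15), 1 fit per experiment over its 12 libraries, with Benjamini-Hochberg adjustment over all genes and calls at 0.05. CPM levels are TMM-scaled within an experiment and are not compared between the experiments. Intervals and floors cover counting error only. The procedure was tested on simulated data. Alternatives included DESeq2 1.42.0, other scalings and filters, and leaving out each library.

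Members and gene lists were chosen with earlier results of these data known. Named members are the 10 with the most counts, the 5 largest called changes each way per comparison (3 for interactions) with a mean of at least 1 CPM, TAS, miRNA, snoRNA, snRNA and listed lncRNA loci (at most 8 per class), and those at the threshold. The text gives some of them, and also other members picked after their values were seen.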

Additional observations from a re-analysis of the deposited data

Results flagged for a closer look

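The members below are those whose response to a stress differed between exa1-1 and WT by a test of the difference itself (edgeR interaction). Groups hold 3 libraries each, so single libraries were not screened as outliers. For salt, 51 members differed. U4.10 rose more in exa1-1, by 2.26 on the log2 scale, and was not called without WT MS replicate 2 or 3 or without exa1-1 MS replicate 2 (lowest 1.75). AT2G21187 rose by 2.01 in exa1-1 and by 1.12 in WT, a difference of 0.89. AT1G15002 had -0.24 in exa1-1 and -1.14 in WT, a difference of 0.90 that was not called in 7 of 20 alternatives, namely 1 fit over all 24 libraries and leaving out exa1-1 NaCl replicate 3 (lowest, 0.73), exa1-1 MS replicate 2 or 3, WT NaCl replicate 1 or 3 or WT MS replicate 2. AT2G08865 had -0.62 in exa1-1 and 1.01 in WT, a difference of -1.63 that was not called without WT NaCl replicate 2 (-1.35). AT4G12917 had -0.43 in exa1-1 and 0.86 in WT, a difference of -1.28 that was not called without exa1-1 NaCl replicate 2 or 3, exa1-1 MS replicate 2 or WT NaCl replicate 1 or 3 (-1.02 to -1.23). RECQ4B had -0.60 in exa1-1 and 0.56 in WT, a difference of -1.16.

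For heat, 31 members differed. AT3G06355 had -1.77 in exa1-1 and -6.03 in WT, a difference of 4.26. AT5G09155 had 0.58 in exa1-1 and -1.10 in WT, a difference of 1.68 that was not called without exa1-1 39 °C replicate 2 (1.47) or WT 39 °C replicate 1 (1.48). AT1G05347 had 3.69 in exa1-1 and 2.28 in WT, a difference of 1.41. AT5G06865 had -4.18 in exa1-1 and -2.45 in WT, a difference of -1.72 that was not called without exa1-1 39 °C replicate 1 or 2, exa1-1 23 °C replicate 1, WT 39 °C replicate 2 or 3 or WT 23 °C replicate 2 (-1.15 to -1.88). MIR163 had -2.48 in exa1-1 and -0.86 in WT, a difference of -1.62. AT3G01205 had -1.05 in exa1-1 and 0.24 in WT, a difference of -1.30 that was not called without exa1-1 39 °C replicate 2 or 3 or WT 39 °C replicate 3 (-1.09 to -1.17). The interactions of AT2G21187, RECQ4B, AT3G06355, AT1G05347 and MIR163 were called in every alternative that gave an adjusted p.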

How the results depend on the processing

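Of 3974 alternative values for 199 named fold changes, 3868 kept direction and call, 99 kept direction but were not called and 7 reversed. The reversals all came with library totals alone: heat in exa1-1 for AT2G08765 (-0.55), AT3G41768 (-0.45) and AT4G16150 (-0.53), heat in WT for GUT15 (-0.15) and AT4G16150 (-0.54), and salt in exa1-1 for GUT15 (-0.056) and AT4G36648 (-0.014). A threshold of 2000 counts left 208 members tested. Salt called 146 of these in exa1-1 and 145 in WT, and heat 176 in exa1-1 and 177 in WT. Genotype called 69 on MS and 58 with NaCl (19 higher, 39 lower). It called 72 at 23 °C (36 and 36) and 60 at 39 °C (37 and 23). One fit over all 24 libraries called 33 salt interactions. Leaving out 1 library gave 31 to 52 salt interactions, the lowest without exa1-1 NaCl replicate 2. With no threshold the noncoding share of counts was 0.508% in exa1-1 with NaCl, 0.540% in exa1-1 on MS, 0.504% in WT with NaCl, 0.491% in WT on MS, 0.583% in exa1-1 at 23 °C, 0.485% in WT at 39 °C and 0.612% in WT at 23 °C. The replicate numbers do not pair samples: 36 correlations of deviations between same-numbered samples ran from -0.049 to 0.050. With the replicate block 260 members were called for salt in exa1-1 and 336 for heat in exa1-1, and no named call was lost.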
